A study of Mus musculus with 24 samples.

Results

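Anakinra, a recombinant form of the interleukin-1 receptor antagonist, had been given to 10 of the 20 brain-injured mice whose lesioned hemisphere tissue was profiled by RNA-seq, and the other 10 had not received it. The comparison of those 10 with those 10 is described here, with the second drug, PLX3397, treated as a second factor. The members were chosen by the treatment labels alone, which place 20 of the 24 libraries of the series in the comparison, and the remaining 4 came from sham mice. Anakinra (100 mg/kg) was injected subcutaneously from shortly after the injury and then daily, with no injection in the last days before tissue collection. PLX3397, an inhibitor of the colony-stimulating factor 1 receptor on which microglia depend, was supplied in the chow (290 mg/kg) up to collection.

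The 4 injured groups held 5 mice each, namely vehicle, Anakinra, PLX3397, and PLX3397+Anakinra. All were male C57BL6N mice aged 12 to 16 weeks according to the labels, and were killed 5 days after a controlled cortical impact. The methods of the study instead name a C57BL/6JRj strain and a slightly narrower range of ages. The labels call the tissue post-traumatic cortex with lesional and perilesional parts, whereas the methods describe sections that also held striatum, dorsal hippocampus and thalamus. Sham mice had no craniotomy. Of the 20 injured mice, only the 5 vehicle mice carry a letter B in their animal numbers, and what it stands for is not given, so that whatever it marks cannot be told apart from the absence of both drugs.

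Interleukin-1 alpha and beta are released after tissue damage and signal through the receptor IL1R1 together with its accessory protein IL1RAP. The receptor antagonist occupies IL1R1 without recruiting the accessory protein, so that no signal follows, and Anakinra does the same as an injected protein. In injured brain, microglia and blood-borne macrophages both produce interleukin-1 and respond to it, and astrocytes and endothelial cells carry the receptor and answer with chemokines and acute-phase proteins through NF-kappaB. Macrophages that enter a lesion take up debris and lipid, and their genes are largely under the control of the factor PU.1, which binds purine-rich sites around the letters GAGGAA.

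Each Anakinra difference was taken separately in 2 sets of mice that share no animal, without PLX3397 (Anakinra minus vehicle) and with it (PLX3397+Anakinra minus PLX3397), and the main effect is the mean of both differences on the log2(TPM + 1) scale. TPM is a level per gene length, scaled so that every library has the same sum. Differences were tested with limma over the 17286 genes that averaged at least 0.5 TPM in the injured mice, out of 36333 listed, with Benjamini-Hochberg adjustment, and a gene was called at an adjusted p below 0.05. Because of the added 1 TPM, differences of low genes are understated.

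In the main effect of Anakinra 33 genes were lower (0.191% of the genes tested) and 6 were higher (0.0347%), against 1047 lower (6.06%) and 743 higher (4.30%) at an unadjusted p below 0.05. All 33 lower genes were lower in both strata, and 28 of them had an unadjusted p below 0.05 in each stratum by itself. Over all genes, 94 were lower (0.544%) and 34 higher (0.197%) by that criterion in both strata. The largest falls were those of Arg1, Lcn2, Wfdc17, Pf4 and F13a1. Of the 33 lower and 6 higher genes together, 15 belong to at least 1 of the 32 gene lists and 24 to none. The median difference of the 33 genes was -0.42 without PLX3397 and -0.74 with it, and 27 of the 33 had the larger size with PLX3397. Since the main effect that chose these 33 genes is the mean of the 2 strata, their shared sign is partly built in, and the counts describe them without testing them.

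Tested separately, the strata gave fewer calls. Without PLX3397, 4 genes were lower (0.0231%) and 2 higher (0.0116%), and at an unadjusted p below 0.05 there were 1196 lower (6.92%) and 896 higher (5.18%). With PLX3397, 19 genes were lower (0.110%) and 0 higher (0%) by limma, with 642 lower (3.71%) and 476 higher (2.75%) at an unadjusted p below 0.05. Each stratum chose its genes in mice that the other did not use, although both tests share the variance estimated over all 20. Of the 19 genes called lower with PLX3397, 18 were also lower without it and 15 had an unadjusted p below 0.05 there, beside the 6.92% of all genes. Of the 4 genes called lower without PLX3397 (Mmp8, Sepp1, Wfdc17 and Zbtb20), 3 had an unadjusted p below 0.05 in the same direction with PLX3397, beside 3.71% of all genes, and Zbtb20 did not. Only Mmp8 and Wfdc17 were called in both strata.

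**Figure D1:**
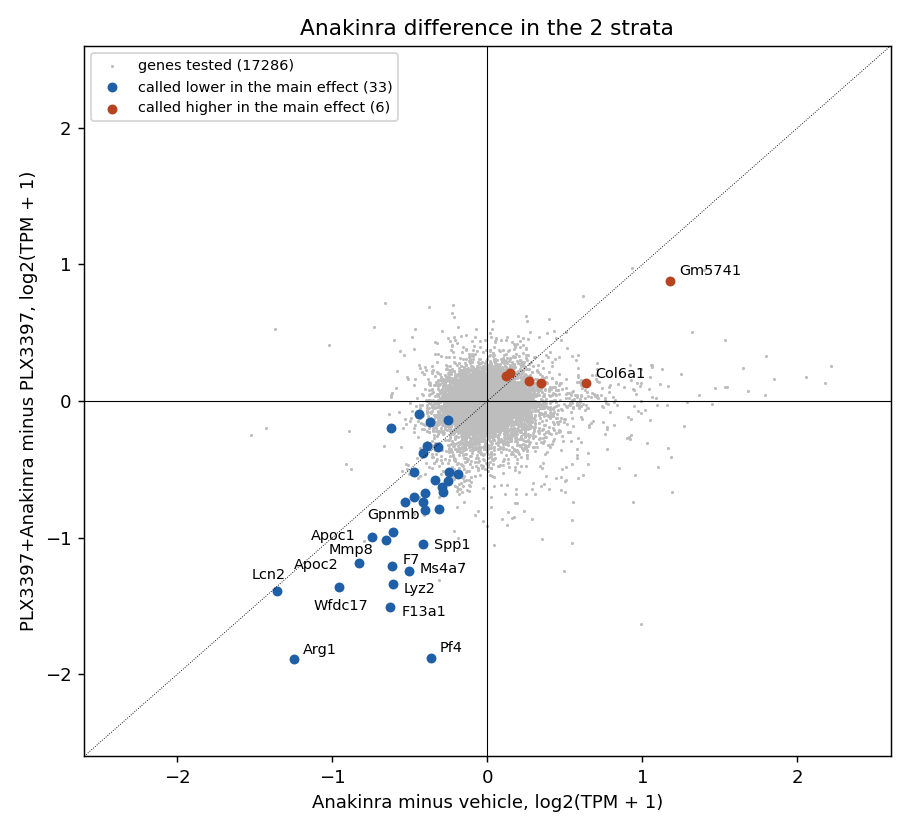
Difference with Anakinra on the log2(TPM + 1) scale without PLX3397 (horizontal axis) and with PLX3397 (vertical axis) for each of the 17286 genes tested; blue points are the 33 genes called lower and red points the 6 called higher in the main effect, and the dotted line marks equal differences. The blue points fill the lower left of the plot, 27 of them with the larger size with PLX3397, while the cloud of all genes shows little relation between the axes (r = 0.09 across genes).

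Across all 17286 genes the differences in both strata were nearly unrelated, with a Pearson r of 0.09 across genes, which are not independent replicates, and the same sign in 52.3% of genes. The interaction called 0 genes (0%) with limma, the smallest adjusted p being 0.121, and 1360 genes (7.87%) had an unadjusted interaction p below 0.05. At an unadjusted p below 0.05 in each stratum, 39 genes were higher without PLX3397 and lower with it, and 17 the reverse. The PLX3397 main effect, fitted on the same 20 mice and so not independent, called 1865 genes lower and 1556 higher (19.8% in either direction).

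No library measure passed the test between mice with and without Anakinra. The number of genes above 0 TPM ranged from 22160 to 23249 over the 24 libraries, and its mean was lower by 74.1 genes in the 10 mice given Anakinra (exact two-sided permutation within strata, p = 0.452). Mitochondrial ribosomal RNA (p = 0.627) and summed hemoglobin (p = 0.600) did not pass the same exact permutation test either, and the adjusted p over the 3 measures was 0.627 for each. Read depth is unknown, since TPM holds no totals. Vehicle mice J17B and J20B had the lowest vehicle values of several matrix and phagocyte genes, and values without J17B or without the pair, a choice made after seeing the data, are given beside the results they move. For genes in which these mice were lowest, leaving them out raises the vehicle mean. A larger fall or a smaller rise with Anakinra is then fixed in advance, and it adds no evidence for a difference. In whole tissue, fewer cells of a type and less RNA per cell cannot be told apart.

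The region just upstream of the genes was examined because the 33 genes were lower together. The 250 bases before the annotated start (RefSeq, GRCm38.p6) are printed for 4 of the lower genes with a GAGGAA match and a lipid carrier without one, 5′ to 3′ on the strand of the gene, and capitals mark GAGGAA or its reverse complement TTCCTC.
Wfdc17, chr11:83703806-83704055, plus strand: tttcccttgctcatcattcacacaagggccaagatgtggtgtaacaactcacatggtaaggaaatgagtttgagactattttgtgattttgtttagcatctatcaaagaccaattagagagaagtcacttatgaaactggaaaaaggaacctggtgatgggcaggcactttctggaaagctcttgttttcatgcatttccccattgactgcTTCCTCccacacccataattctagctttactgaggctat
Mmp8, chr9:7558179-7558428, plus strand: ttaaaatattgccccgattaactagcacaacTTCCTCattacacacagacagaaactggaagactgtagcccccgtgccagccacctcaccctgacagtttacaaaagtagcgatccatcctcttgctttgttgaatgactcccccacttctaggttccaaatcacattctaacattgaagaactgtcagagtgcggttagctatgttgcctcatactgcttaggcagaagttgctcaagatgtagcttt
F13a1, chr13:37050245-37050494, minus strand: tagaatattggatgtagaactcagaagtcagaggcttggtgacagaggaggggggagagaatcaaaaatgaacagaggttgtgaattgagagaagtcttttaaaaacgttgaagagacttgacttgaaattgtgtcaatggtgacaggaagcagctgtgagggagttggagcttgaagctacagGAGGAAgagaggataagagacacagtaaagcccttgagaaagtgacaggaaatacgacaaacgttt
Lcn2, chr2:32387740-32387989, minus strand: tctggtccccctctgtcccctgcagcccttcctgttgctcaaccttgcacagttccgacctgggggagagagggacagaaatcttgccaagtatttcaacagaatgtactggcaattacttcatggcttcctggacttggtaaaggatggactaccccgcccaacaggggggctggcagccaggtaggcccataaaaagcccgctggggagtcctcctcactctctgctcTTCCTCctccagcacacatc
Apoc2, chr7:19677942-19678191, minus strand: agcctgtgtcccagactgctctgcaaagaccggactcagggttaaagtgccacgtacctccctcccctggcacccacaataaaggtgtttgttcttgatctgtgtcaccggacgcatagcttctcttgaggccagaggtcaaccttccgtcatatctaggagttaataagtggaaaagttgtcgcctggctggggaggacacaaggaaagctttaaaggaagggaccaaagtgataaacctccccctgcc

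In the window from 250 bases before to 50 after the start, GAGGAA on either strand was found in 18 of the 28 lower genes with a promoter sequence and in 2 of the 6 higher genes. The share was 28.3% over all 32851 promoters of that length and 30.8% over the 12783 tested genes that matched. The letters TTGCNNAA, a C/EBP pattern, occurred in 6 of 28 lower and 0 of 6 higher genes (10.3% of tested genes). The NF-kappaB pattern (GGGA and CC with any 4 bases between them) was in 4 of 28 and 2 of 6 (29.8%), and the AP-1 pattern TGANTCA in 3 of 28 and 1 of 6 (6.52%). The patterns were searched on both strands, and a match describes letters only. These backgrounds hold genes of all cell types, and no set of macrophage genes was compared. Whether macrophage genes that were not called lower with Anakinra hold GAGGAA as often was not tested. Arg1, Apoc1, Cd24a, Csf2rb and Bst1 had no entry.

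Arg1, F13a1 and Pf4 were the called members of the list of alternatively activated and border macrophages. Arg1, the arginase that converts arginine to ornithine in repair-type macrophages (chr10:24915207-24927470), measured 20.4, 31.6, 40.6, 42.4 and 78.8 TPM in vehicle mice and 10.1, 12.9, 16.5, 17.7 and 25.6 TPM in Anakinra mice. With PLX3397 it was 9.61, 14.6, 18.1, 24.1 and 25.4 TPM, and with both drugs 3.01, 3.26, 3.98, 4.60 and 5.30 TPM. The groups overlapped by 1 mouse on each side without PLX3397 and did not overlap with it, and the mean with Anakinra was 0.387 and 0.219 times that without. The main effect was -1.57 ± 0.20 (SE, adjusted p = 5.27e-04), and sham mice averaged 0.151 TPM.

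F13a1, coagulation factor XIII subunit A and a macrophage marker, measured 15, 19.7, 30.4, 30.8 and 31.6 TPM in vehicle and 12.8, 13.4, 16.6, 16.7 and 18.8 TPM in Anakinra mice. The PLX3397 mice held 8.21 to 15.4 TPM and the mice with both drugs 2.64 to 4.06 TPM, again with no overlap in the latter pair only. Its main effect was -1.07 ± 0.13 (adjusted p = 2.94e-04). Pf4, platelet factor 4, a chemokine also made by border macrophages, averaged 63.1 ± 20.1 TPM (SD, n = 5) in vehicle and 47.3 ± 8.31 TPM in Anakinra mice, a difference that missed an unadjusted p of 0.05. Vehicle mice J17B and J20B held its lowest vehicle values, 37.7 and 47.8 TPM, and without them the difference was -0.69 ± 0.21 (adjusted p = 0.270). With PLX3397 it went from 20.1, 27.1, 27.1, 37.3 and 41.3 TPM to 5.45, 6.43, 6.83, 7.48 and 11.6 TPM on addition of Anakinra, a fall to 0.247 times. The Pf4 differences were -0.36 ± 0.21 and -1.88 ± 0.21 (adjusted p = 0.512 and 1.11e-04), and their difference had an interaction of -1.52 ± 0.30 (adjusted p = 0.152).

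Of the 16 tested members of the list of alternatively activated and border macrophages, 3 were called lower and 0 higher. At an unadjusted p below 0.05, 8 were lower and 0 higher. The shares of all genes called lower and lower by the unadjusted criterion were 0.191% and 6.06%. The list median was -0.25 (-0.12 without PLX3397 and -0.38 with it), beside a median over all genes of -0.00288. Without J17B and J20B the median without PLX3397 was -0.21. Mrc1, the mannose receptor of border macrophages, averaged 6.02 TPM with and without Anakinra in the absence of PLX3397, and 0.678 against 0.987 TPM in its presence (main effect -0.12 ± 0.10, adjusted p = 0.698). Ms4a4a, a membrane protein of macrophages, had a main effect of -0.65 ± 0.15 (adjusted p = 0.0867). Both were picked after their values were seen.

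Wfdc17, a whey acidic protein-type inhibitor made by activated macrophages, had groups that did not overlap in either stratum. It measured 69.5, 79.0, 92.2, 105 and 124 TPM in vehicle mice and 41.9, 43.0, 43.1, 46.9 and 62.1 TPM in Anakinra mice. With PLX3397 it was 30.0, 37.5, 39.5, 48.8 and 55.2 TPM, and with both drugs 12.8, 14.9, 15.6, 16.6 and 18 TPM. The ratio of means was 0.505 and 0.370, the main effect -1.16 ± 0.11 (adjusted p = 1.15e-05), and both strata were called by themselves (adjusted p = 0.0318 and 1.11e-04). Over all genes, 4 were lower (0.0231%) and 2 higher (0.0116%) with no overlap in both strata. The 4 lower ones were Wfdc17, Mmp8, Apoc2 and Cd300lf. The 2 higher ones, Cdk10 and E4f1, had main effects of 0.12 and 0.14 and were not called (adjusted p = 0.149 and 0.115).

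Mmp8, the collagenase of neutrophils and some macrophages, was low, and its groups did not overlap within either stratum. Vehicle mice held 3.09, 3.75, 3.99, 4.11 and 4.15 TPM and Anakinra mice 1.59, 2.00, 2.19, 2.25 and 2.29 TPM. The PLX3397 mice held 1.62, 2.06, 2.61, 2.74 and 2.83 TPM and the mice with both drugs 0.409, 0.522, 0.585, 0.840 and 0.957 TPM. All 4 sham mice were listed at 0. The main effect was -0.84 ± 0.08 (adjusted p = 1.15e-05), with calls without and with PLX3397 (adjusted p = 0.0372 and 1.11e-04). Lyz2, lysozyme of monocytes, macrophages and neutrophils, averaged 2072 ± 523 TPM in vehicle and 1345 ± 310 TPM in Anakinra mice, which overlapped, and 974 ± 251 and 378 ± 48.7 TPM in the PLX3397 pair, which did not. Its main effect was -0.97 ± 0.13 (adjusted p = 0.00104).

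Mmp8 and Lyz2 were the only called members of the monocyte and neutrophil list, of 13 tested. The list had 4 lower and 1 higher at an unadjusted p below 0.05, beside 6.06% and 4.30% of all genes. Its median was -0.09 (0.06 without PLX3397 and -0.24 with it). The median without PLX3397 changed sign to -0.04 without J17B, and was -0.11 without J17B and J20B. It was not computed with any other mouse left out. Defining neutrophil granule genes Ngp and Camp did not pass the filter on low levels. The part of neutrophils in the Mmp8 difference was not tested.

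**Figure D2:**
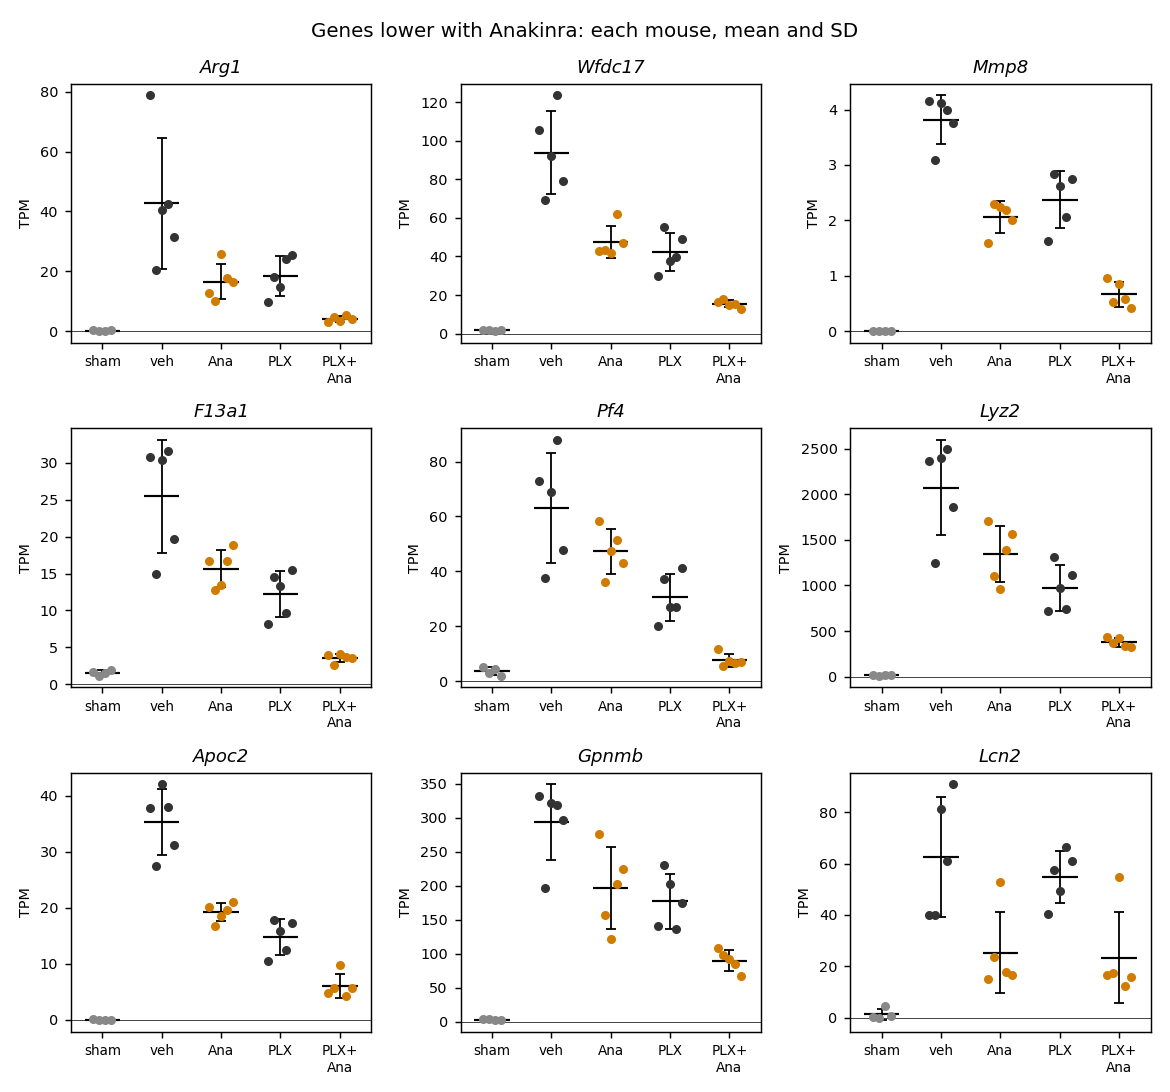
Level in TPM of 9 genes called lower in the main effect, by group; each point is a mouse, bars are the mean and SD (n = 5, sham n = 4), black points are injured mice without Anakinra, orange with it, and grey sham. In each panel the mean is lower with Anakinra in both pairs, and for Wfdc17, Mmp8 and Apoc2 no Anakinra mouse reaches any mouse of its comparison group.

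Lipid carriers of phagocytes were lower as well. Apoc2, the activator of lipoprotein lipase, measured 27.5, 31.2, 37.8, 38.0 and 42.0 TPM in vehicle and 16.8, 18.6, 19.6, 20.2 and 21 TPM in Anakinra mice. It was 10.4, 12.5, 15.9, 17.3 and 17.8 TPM with PLX3397 and 4.33, 4.71, 5.64, 5.67 and 9.80 TPM with both drugs. Neither pair overlapped, and the main effect was -1.01 ± 0.11 (adjusted p = 9.87e-05). Its cluster neighbour Apoc1 fell from 26 ± 5.57 to 15 ± 2.63 TPM and from 13 ± 2.88 to 6.23 ± 2.13 TPM (-0.87 ± 0.15, adjusted p = 0.0101). Apoe, the main lipid carrier of the brain, made by astrocytes and phagocytes, averaged 8335, 6343, 5465 and 4343 TPM in vehicle, Anakinra, PLX3397 and PLX3397+Anakinra mice (-0.36 ± 0.07, adjusted p = 0.0148).

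The cholesterol exporter Abca1 had a like difference, with means of 90.5, 72.1, 58.6 and 46.1 TPM in the same order (-0.33 ± 0.05, adjusted p = 0.00916). Apoe and Abca1 were the only called members among 22 tested genes of lipid handling and cholesterol synthesis, with a list median of 0.05. At an unadjusted p below 0.05, 3 of them were lower and 5 higher, beside 6.06% and 4.30% of all genes. Apoc1 and Apoe lie side by side in the genome in a cluster with Apoc2.

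Damage-associated phagocyte genes had the most calls of all lists. Of 27 tested, 7 were called lower and 0 higher, 20 were lower and 1 higher at an unadjusted p below 0.05, and 6 were lower in both strata by that criterion. Over all genes the shares were 0.191% called lower, 6.06% lower at an unadjusted p below 0.05 and 0.544% lower in both strata. The median was -0.26, made of -0.12 without PLX3397 and -0.35 with it. Without J17B alone the median without PLX3397 was -0.24, with 10 in place of 6 genes lower at an unadjusted p below 0.05 there. In that setting 10 of the list were called lower and 1 higher in the main effect, beside 130 and 18 of all 17298 genes then tested. Without J17B and J20B the median without PLX3397 was -0.26, with 11 genes lower. Gpnmb, a lysosomal glycoprotein of lipid-laden phagocytes, measured 196, 296, 318, 322 and 332 TPM in vehicle and 121, 156, 203, 225 and 276 TPM in Anakinra mice, and 136 to 230 TPM against 66.6 to 109 TPM in the PLX3397 pair. The vehicle value of 196 TPM belonged to J17B and was the only one inside the Anakinra range. The main effect of Gpnmb was -0.78 ± 0.14 (adjusted p = 0.0118).

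Spp1, osteopontin, one of the most abundant transcripts of the lesion, averaged 3737 ± 1233 TPM in vehicle, 2694 ± 513 TPM in Anakinra, 2055 ± 551 TPM in PLX3397 and 989 ± 225 TPM in PLX3397+Anakinra mice. It passed narrowly (-0.73 ± 0.15, adjusted p = 0.0498) and missed an unadjusted p of 0.05 without PLX3397. Its difference without PLX3397 was -0.42 ± 0.22 with all mice and -0.78 ± 0.19 (adjusted p = 0.168) without J17B and J20B, where the main effect was -0.91 (adjusted p = 9.32e-04). Ms4a7, a membrane protein of macrophages from blood and borders, averaged 16.4 and 11.3 TPM without PLX3397 and 6.44 and 2.11 TPM with it (-0.87 ± 0.15, adjusted p = 0.00916). Ctss, the lysosomal protease cathepsin S, averaged 808 and 674 TPM, and 403 and 265 TPM (-0.42 ± 0.08, adjusted p = 0.0188).

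Further called lower genes, none of which belongs to a list, are named to account for every call. The NADPH oxidase subunit Cybb had a main effect of -0.60 ± 0.10 (adjusted p = 0.00823), and the inhibitory receptor Cd300lf one of -0.54 ± 0.09 (adjusted p = 0.00916), with means of 6.26 and 4.51 TPM without PLX3397 and 3.36 and 1.73 TPM with it. Tlr8, a sensor of single-stranded RNA, was at -0.46 and the chemokine receptor Cxcr4 at -0.50. Csf2rb, the shared beta chain of the receptors for GM-CSF and interleukin-3, was at -0.38, the tetraspanin Cd53 at -0.36, and Igsf6 and Ms4a6c at -0.48 and -0.55. AB124611 and Gm21188, of no role given here, were at -0.63 and -0.46. The NAD-consuming ectoenzymes Cd38 (-0.40) and its relative Bst1 (-0.58), and heparanase, Hpse (-0.59), were lower too. Adjusted p for these genes lay between 0.00524 and 0.0498 in limma, and each was lower in both strata. Coagulation factor VII, F7, the initiator of the extrinsic pathway with tissue factor, averaged 3.54 and 1.89 TPM without PLX3397 and 2.71 and 0.595 TPM with it (-0.91 ± 0.13, adjusted p = 0.00209).

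Lcn2, lipocalin 2, an iron-siderophore binder that astrocytes and neutrophils make in response to interleukin-1, differed from the macrophage genes in its relation to PLX3397. It measured 40.0, 40.0, 61.0, 81.3 and 90.8 TPM in vehicle and 15.3, 16.6, 17.9, 23.7 and 52.9 TPM in Anakinra mice. In the PLX3397 pair it measured 40.4, 49.4, 57.3, 60.8 and 66.4 TPM without and 12.2, 16.0, 16.7, 17.4 and 54.8 TPM with Anakinra. In each stratum 4 of the 5 Anakinra mice lay below all mice of the comparison group, and 1 mouse (J14 and J09) lay within it. The differences were -1.35 ± 0.34 and -1.39 ± 0.34, and the main effect was -1.37 ± 0.24 (adjusted p = 0.0118). The PLX3397 main effect on Lcn2 was -0.15 ± 0.24 (adjusted p = 0.723).

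Lcn2 was the only called member of 28 tested NF-kappaB target and interleukin-1 response genes, 18 tested reactive astrocyte genes and 15 tested genes of heme and iron handling. The medians of those lists were -0.03, -0.03 and -0.08. At an unadjusted p below 0.05, 5, 3 and 3 genes were lower and 0 higher in them, beside 6.06% and 4.30% of all genes. Without J17B alone, 3, 3 and 2 genes were called lower, and the medians were -0.08, -0.08 and -0.09. Over all genes, 130 of the 17298 then tested were called lower in that setting, in place of 33 of 17286. Saa3, another acute-phase gene, chosen after its values were seen, averaged 11.3 and 5.83 TPM without PLX3397 and 9.96 and 7.86 TPM with it and was not called (-0.69 ± 0.26, adjusted p = 0.343).

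Transcripts of the interleukin-1 system itself did not pass the test. Il1a averaged 1.58 ± 0.326 TPM in vehicle and 1.61 ± 0.143 TPM in Anakinra mice, and 0.933 ± 0.252 and 0.674 ± 0.140 TPM in the PLX3397 pair (-0.09 ± 0.07, adjusted p = 0.705). Il1b was under 2 TPM in every mouse, with a main effect of -0.05 ± 0.09 (adjusted p = 0.880). The endogenous antagonist Il1rn averaged 2.75, 2.54, 1.97 and 1.06 TPM in vehicle, Anakinra, PLX3397 and PLX3397+Anakinra mice, with individual vehicle values from 0.624 to 4.67 TPM (-0.26 ± 0.18, adjusted p = 0.635). The lowest vehicle values of Il1rn were those of J17B and J20B, without which the difference without PLX3397 went from 0.03 to -0.46 and the main effect to -0.50 (adjusted p = 0.0780). The injected antagonist is a protein and does not appear among transcripts.

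The receptors gave small differences. Il1r1, the signalling receptor that Anakinra blocks, averaged 8.87, 9.18, 10.4 and 9.62 TPM in that order (-0.01 ± 0.09, adjusted p = 0.973). Il1r2, the decoy receptor, was at -0.01 ± 0.08 (adjusted p = 0.974) and the accessory protein Il1rap at -0.05 ± 0.04 (adjusted p = 0.721). Of the 19 tested genes of the interleukin-1 axis, limma called 0 in either direction, and the median was -0.05. At an unadjusted p below 0.05, 1 was lower and 0 higher, beside 6.06% and 4.30% of all genes. With PLX3397, 4 of the 19 were lower and 0 higher by that criterion, beside 3.71% and 2.75% of all genes. Without PLX3397 there were 0 in either direction. An unadjusted interaction p below 0.05 was held by 3 of the 19, beside 7.87% of all genes, and by 0 without J17B and J20B.

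Homeostatic microglia genes gave 0 calls of 19 in limma and a median of -0.08. At an unadjusted p below 0.05, 5 were lower and 0 higher, beside 6.06% and 4.30% of all genes. P2ry12, the purinergic receptor by which resting microglia sense nucleotides, averaged 54.8 ± 7.02 TPM in vehicle and 55.0 ± 2.20 TPM in Anakinra mice, and 16.1 ± 4.14 and 16.7 ± 3.86 TPM with PLX3397 (0.04 ± 0.11, adjusted p = 0.934). Csf1r, the receptor that PLX3397 inhibits, averaged 226, 221, 89.1 and 77.5 TPM in vehicle, Anakinra, PLX3397 and PLX3397+Anakinra mice (-0.10 ± 0.07, adjusted p = 0.611). Its PLX3397 main effect was -1.43 ± 0.07 (adjusted p = 7.86e-12). Tmem119, another microglial marker, had an Anakinra main effect of 0.13 ± 0.07 (adjusted p = 0.522). P2ry12, Csf1r and Tmem119 were picked after their values were seen, and P2ry12 and Tmem119 differed in sign from the list median. With PLX3397, 6 of the 19 genes were lower and 0 higher at an unadjusted p below 0.05, beside 3.71% of all genes lower. Without PLX3397 there were 0 in either direction.

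The PLX3397 main effect, taken on the same 20 mice, is given beside that of Anakinra. The median PLX3397 main effect of the 33 genes was -0.91, and Lcn2, Zbtb20 and Nnat did not pass it (adjusted p = 0.723, 0.610 and 0.614). The mice with both drugs had the lowest mean of the injured groups for 31 of the 33, beside 22.9% of all genes tested. That count is partly fixed by the choice of genes lower with Anakinra in both strata. Wfdc17 was -1.34 with PLX3397 beside -1.16 with Anakinra, Pf4 -1.76 beside -1.12 and Spp1 -1.14 beside -0.73. Arg1 (-1.44 beside -1.57), Lcn2 (-0.15 beside -1.37), Mmp8 (-0.71 beside -0.84), F7 (-0.54 beside -0.91), Bst1 (-0.35 beside -0.58), Zbtb20 (-0.04 beside -0.27) and Nnat (-0.03 beside -0.19) had the smaller size with PLX3397. The sizes were nearly equal for Cd24a (-0.406 beside -0.407). The sham mean was below all injured group means for 33 of the 33 lower genes, beside 37.5% of all genes tested.

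The remaining 6 of the 33 genes, Apoe, Cd38, Sepp1, Zbtb20, Cd24a and Nnat, had the larger size without PLX3397. Sepp1, selenoprotein P (now Selenop), a secreted selenium carrier, measured 605, 642, 649, 651 and 675 TPM in vehicle and 471, 479, 495, 514 and 531 TPM in Anakinra mice, with no overlap. With PLX3397 it measured 372, 395, 433, 451 and 460 TPM without and 363, 364, 386, 388 and 388 TPM with Anakinra. The differences were -0.37 ± 0.05 (adjusted p = 0.00905) and -0.15 ± 0.05 (adjusted p = 0.451), and the interaction was 0.22 ± 0.07 (adjusted p = 0.532). Zbtb20, a zinc finger repressor, averaged 19.6 and 14.1 TPM without PLX3397 and 16.6 and 15.5 TPM with it (-0.27 ± 0.05, adjusted p = 0.0410), and Cd24a, a glycosylphosphatidylinositol-anchored surface protein of immature neurons and leukocytes, 51.2 and 32.7 TPM, and 33.1 and 28.6 TPM (-0.41 ± 0.08, adjusted p = 0.0474). Nnat, neuronatin, a small membrane protein of neural cells, averaged 170 and 143 TPM, and 159 and 145 TPM (-0.19 ± 0.04, adjusted p = 0.0498).

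The 6 called higher genes had smaller differences. Igfbp6, a binding protein for insulin-like growth factor II, measured 40.9, 43.6, 44.0, 47.2 and 48.6 TPM in vehicle and 52.9, 55.2, 55.4, 61.4 and 62.2 TPM in Anakinra mice, with no overlap. With PLX3397 it measured 49.3, 50.1, 54.8, 56.8 and 58.6 TPM without and 55.2, 57.8, 59.2, 59.7 and 63.5 TPM with Anakinra, with overlap (0.24 ± 0.04, adjusted p = 0.0111). Igfbp4, a binding protein of the same family, averaged 98.5 and 119 TPM without PLX3397 and 114 and 126 TPM with it (0.21 ± 0.04, adjusted p = 0.0181). Mical2, an actin-oxidising enzyme, averaged 78.6 and 85.4 TPM, and 84.5 and 96.3 TPM (0.15 ± 0.03, adjusted p = 0.0211), and the ETS factor Etv5 50.2 and 55.7 TPM, and 50.2 and 58.2 TPM (0.18 ± 0.04, adjusted p = 0.0492). For these 4 genes the sham mean lay above all injured means. Vehicle mice had the lowest mean of the injured groups for all 6 higher genes, which is partly fixed by choosing genes higher with Anakinra.

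Gm5741, a predicted gene, measured 2.52, 3.08, 3.30, 3.31 and 6.80 TPM in vehicle and 7.81, 8.25, 9.53, 10.5 and 11.5 TPM in Anakinra mice. With PLX3397 it averaged 4.32 ± 1.46 and 9.51 ± 4.75 TPM (1.03 ± 0.21, adjusted p = 0.0423). Col6a1, a chain of collagen VI of the pericellular matrix, measured 56.6, 62.9, 71.7, 82.9 and 88.4 TPM in vehicle and 102, 104, 109, 116 and 132 TPM in Anakinra mice. In the PLX3397 pair it averaged 98.4 ± 8.49 and 108 ± 15.5 TPM, with overlap. The differences were 0.64 ± 0.11 (adjusted p = 0.0323) and 0.13 ± 0.11 (adjusted p = 0.908), and the interaction was -0.51 ± 0.15 (adjusted p = 0.477).

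The rule for naming 10 higher genes also took Ibsp, Gm38521, Gm32404 and Prr33, which had an unadjusted p below 0.05 in both strata and no call (adjusted p = 0.114 to 0.233). Ibsp, bone sialoprotein, was below 1 TPM in all vehicle mice and reached 9.86 TPM in 1 Anakinra mouse, J05, while the other 4 lay between 0.249 and 0.851 TPM.

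**Figure D3:**
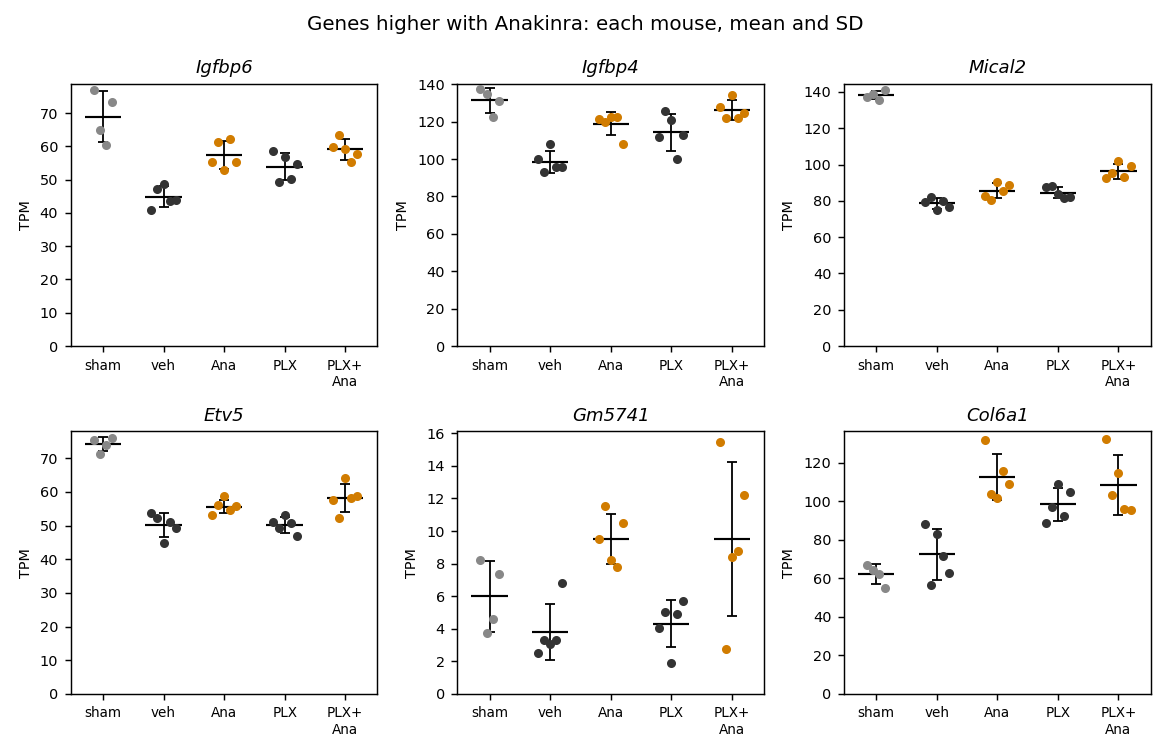
Level in TPM of the 6 genes called higher in the main effect, by group; each point is a mouse, bars are the mean and SD (n = 5, sham n = 4), black points are injured mice without Anakinra, orange with it, and grey sham. Sham mice lie above the injured groups for Igfbp6, Igfbp4, Mical2 and Etv5 on average, and the Col6a1 groups separate only without PLX3397.

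Matrix genes had higher values with Anakinra in the stratum without PLX3397. Of 16 tested fibrillar and associated collagens, 13 were higher without PLX3397 at an unadjusted p below 0.05 and 0 with it, with medians of 0.99 and 0.13, and Col6a1 alone was called in the main effect. Of 30 fibroblast matrix and crosslinking genes, 27 were higher without PLX3397 and 0 with it, where 1 was lower, and the medians were 1.03 and 0.05. By the same criterion 5.18% of all genes were higher without PLX3397. These are interaction patterns, with an unadjusted interaction p below 0.05 for 11 of 16 and 24 of 30 genes beside 7.87% of all, and none passed after adjustment. Without J17B these counts were 7 of 16 and 13 of 30, beside 1136 of all 17298 genes then tested. Without J17B and J20B they were 1 of 16 and 7 of 30, beside 968 of 17283.

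Col1a1, the alpha 1 chain of type I collagen, measured 15.1, 23.4, 169, 196 and 206 TPM in vehicle and 232, 246, 314, 352 and 525 TPM in Anakinra mice, beside 132 to 348 TPM with PLX3397 and 207 to 343 TPM with both drugs. The vehicle mice fell into 3 between 169 and 206 TPM and the pair J17B and J20B, closer to the sham mean of 5.24 TPM. Col3a1 showed the same split, with 8.75 and 15.9 TPM in those mice and 140 to 180 TPM in the other 3, against 204 to 351 TPM in Anakinra mice. Without J17B and J20B the Col1a1 difference without PLX3397 went from 2.05 to 0.75, and the list medians from 0.99 to 0.57 for collagens and from 1.03 to 0.47 for fibroblast matrix, where 11 of 16 and 15 of 30 genes were higher at an unadjusted p below 0.05. Periostin, Postn, a matrix protein of activated fibroblasts, averaged 12.4 and 35.9 TPM, and 36.9 and 38.3 TPM (main effect 0.88 ± 0.27, adjusted p = 0.209). These 3 genes were picked after their values were seen.

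Interferon-stimulated genes had opposite differences in the strata. Of 27 tested, 20 were higher without PLX3397 and 14 lower with it at an unadjusted p below 0.05, 12 of them both, and 26 had an unadjusted interaction p below 0.05. Over all genes, 5.18% were higher without PLX3397, 3.71% lower with it, and 39 of the 17286 both. An unadjusted interaction p below 0.05 was held by 7.87%. Their medians were 0.37 and -0.33, and the main effect median was 0.03 with 0 calls in limma and 0 at an unadjusted p below 0.05. Cxcl10, a chemokine for activated T cells, measured 21.1, 26.8, 29.8, 30.6 and 32.1 TPM in vehicle and 39.2, 39.5, 40.9, 45.6 and 51.6 TPM in Anakinra mice, with no overlap. With PLX3397 it measured 17.5, 24.4, 31.1, 34.6 and 36.8 TPM without and 14.6, 18.2, 19.4, 21.3 and 21.8 TPM with Anakinra. Its interaction was -1.16 ± 0.22 (adjusted p = 0.121), which did not pass.

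Ifi44 and Ifit3, antiviral effectors, followed the same course. Ifi44 averaged 4.76 and 6.88 TPM without PLX3397 and 4.57 and 2.75 TPM with it, and Ifit3 55.4 and 77.1 TPM, and 60.0 and 41.0 TPM. Without J17B and J20B the list median without PLX3397 was 0.33, with 14 genes higher and 23 with an unadjusted interaction p below 0.05. Over all genes, 968 of the 17283 then tested had such an interaction p. The 3 genes were chosen after their values were seen, and the list was chosen with earlier results known.

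**Figure D4:**
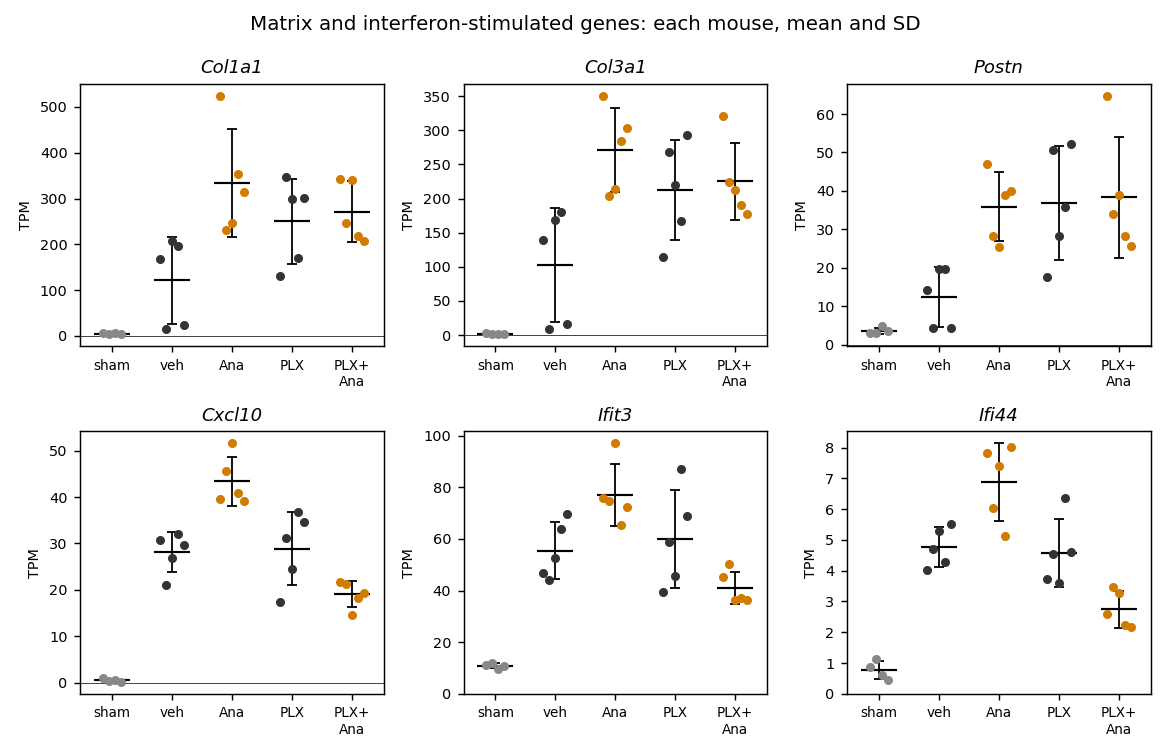
Level in TPM of 3 matrix genes (upper panels) and 3 interferon-stimulated genes (lower panels) by group; each point is a mouse, bars are the mean and SD (n = 5, sham n = 4), black points are injured mice without Anakinra, orange with it, and grey sham. The matrix genes differ between vehicle and Anakinra mice and not visibly in the PLX3397 pair, with 2 vehicle mice near the sham level, and the interferon-stimulated genes are higher with Anakinra without PLX3397 and lower with it.

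Other cell types of the tissue gave no call. Limma called 0 of 29 neuronal and synaptic, 15 striatal, 12 thalamic, 12 hippocampal, 15 meningeal, 12 choroid plexus, 16 endothelial, 13 pericyte and smooth muscle, 15 homeostatic astrocyte, 7 red blood cell and 4 lymphocyte genes. At an unadjusted p below 0.05 there were 1 higher for neurons, 1 higher for thalamus, 1 lower and 2 higher for meninges, 4 lower for endothelial cells, 1 lower and 2 higher for pericytes, 4 lower and 1 higher for astrocytes, and 0 for the others. Of all genes tested, 6.06% were lower and 4.30% higher by that criterion. List medians lay between -0.04 and 0.08. Some of these medians join strata of opposite sign. The striatal list was at -0.09 without PLX3397 and 0.16 with it, and the cell cycle list at 0.21 and -0.08. Without J17B the values without PLX3397 were -0.02 and 0.09. At an unadjusted p below 0.05, 0 striatal genes passed without PLX3397 and 1 was higher with it. Uneven tissue content between groups was not tested. Complement genes had 8 of 17 lower and 0 higher at an unadjusted p below 0.05, with 0 calls and a median of -0.13. Without J17B alone, 2 complement genes were called lower, beside 130 of all 17298 genes then tested, and the median was -0.18. Neither the cell cycle (median 0.06), immediate early (0.10), injured neuron (-0.05), vascular basement membrane (0.16) nor circadian clock (0.02) list held a call, with 0, 0, 5, 0 and 0 members lower and 1, 1, 1, 2 and 2 higher at an unadjusted p below 0.05. Among 18 matrix metalloproteinases and inhibitors, Mmp8 alone was called, with 1 lower and 4 higher at an unadjusted p below 0.05 and a median of 0.05.

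**Figure D5:**
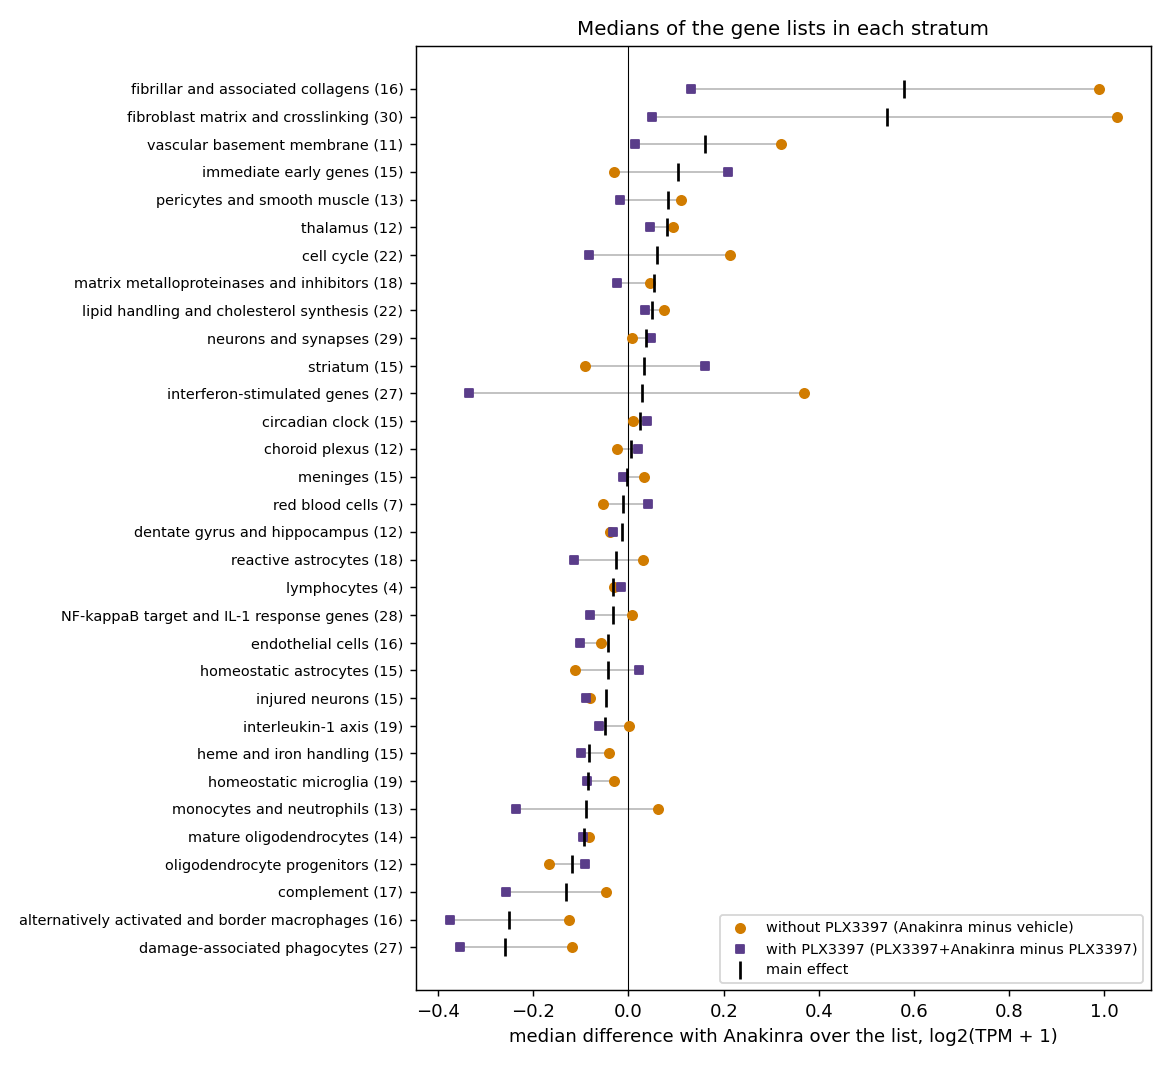
Median difference with Anakinra on the log2(TPM + 1) scale over each gene list (number of tested genes in parentheses), without PLX3397 (circles), with PLX3397 (squares) and in the main effect (vertical ticks). Damage-associated phagocytes and alternatively activated and border macrophages lie lowest at -0.26 and -0.25, collagens and fibroblast matrix lie highest with the strata far apart, and interferon-stimulated genes lie on both sides of 0.

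The calls depended on PLX3397 being in the model. With PLX3397 left out, the 10 mice with and 10 without Anakinra gave 0 calls in either direction in limma, and none of the 33 lower and 6 higher genes separated all 10 mice from the other 10. Leaving out vehicle mouse J17B gave 130 lower and 18 higher genes, among them the 33 and 6 called with all mice, and leaving out PLX3397 mouse J01 gave 50 and 11.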

How the data were processed

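Tissue RNA of 24 mice was sequenced with paired ends, 1 library per mouse. According to the study's methods, the authors trimmed adapters and mapped reads in CLC Genomics Workbench to the mouse genome build mm10 (GRCm38 in the submitters' processing notes), and deposited TPM values, scaled by gene length and library, per gene, with each library summing to 1000000. The low TPM values step by amounts that differ between genes, so that gene length is part of the unit, and read depth is unknown. The authors call the unit CPM in the software's terms as well. A filtered table with p and F values of the authors' own tests was not used.

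Groups came from the labels, and 0 columns were left unmapped. Genes averaging at least 0.5 TPM over the 20 injured mice were fitted as log2(TPM + 1) in limma 3.58.1 (R 4.3.3), with 1 mean per group, a variance trend and Benjamini-Hochberg adjustment. The study's methods compared single groups, whereas the factorial contrast uses all injured mice. The 4 sham mice were used for levels only. Library measures were compared by exact permutation within strata. The fit was tested on simulated data beforehand. P-values measure the spread between single mice housed 2 per cage, with cages not given.

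Named genes were the 10 largest differences in each direction among called genes with the same sign in both strata (filled up with genes at an unadjusted p below 0.05 in both strata), up to 3 called genes per list, 6 interleukin-1 genes, and the 3 called genes with the smallest interaction p in each direction. The remaining called genes and some genes chosen after their values were seen were added. The contrast, the 32 gene lists and the promoter patterns were chosen with earlier results of these data known. Alternatives covered the pseudocount, the filter, rescaling, the model, weights, the limits of the study (a ratio above 2 and a difference above 4 TPM) and each mouse left out.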

Additional observations from a re-analysis of the deposited data

Results flagged for a closer look

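Among 245 groups of 4 or 5 mice, taken for 49 named genes, 18 held a mouse far from the others by Dixon's test, which is 7.35% where chance gives about 5%, or 1 in 20. Several fell on the same animals. In the PLX3397+Anakinra group, mouse J09 had 54.8 TPM of Lcn2, where the other 4 reached 17.4 TPM at most, 9.80 TPM of Apoc2, and 16.5 TPM of Il1rap, lower than the rest. In the Anakinra group, J14 had 52.9 TPM of Lcn2, J21 62.1 TPM of Wfdc17, J22 108 TPM of Igfbp4 and J05 9.86 TPM of Ibsp, the other 4 staying under 1 TPM.

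In the vehicle group, J17B was low in 3 phagocyte and lipid genes, with 16.4 TPM of Apoc1, 196 TPM of Gpnmb and 11 TPM of Cxcr4. Vehicle mouse J20B was high in Gm5741 (6.80 TPM) and Il1r2 (0.736 TPM). The sham mice that stood apart were J15 in Lcn2 (4.55 TPM), J07 in Apoc2 (0.175 TPM), Il1rn (0.0504 TPM) and Ctss (88.6 TPM), and J16 in Cd38 (8.73 TPM) and Csf2rb (0.715 TPM). In sham mice, Apoc2 and Il1rn were listed at 0 in the other 3 mice.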

How the results depend on the processing

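No called value changed sign. Main-effect calls were 6 higher and 33 lower. They became 3 higher without the filter, 0 and 0 with PLX3397 left out of the model, 1 higher without the variance trend, 23 and 154 with array weights, 0 and 4 on linear TPM with ordinary variance, 2 and 3 by the limits of the study, and 13 and 104 without vehicle mice J17B and J20B, a setting chosen after seeing the data. Of the 104, 32 were among the 33. Without PLX3397, the 2 higher and 4 lower genes became 0 and 1 without the filter, 12 and 8 with all 24 libraries in the fit, 7 lower without the trend, 77 and 138 with weights, 1 and 9 on linear TPM, 9 lower without the pair of vehicle mice, and 26 higher by the limits of the study. With PLX3397, the 0 higher genes became 1 without the filter, with all 24 libraries and by the limits of the study, and the 19 lower became 12 without the trend, 32 with weights, 1 on linear TPM and 38 without the pair. In both strata, 34 higher and 94 lower became 55 and 187 with weights, 1 and 2 by the limits of the study, 0 and 2 at an adjusted p in each stratum, 2 and 4 with no overlap, and 207 lower without the pair. Array weights gave 3 interaction calls. By the limits of the study the PLX3397 main effect had 1 higher and 206 lower genes. The causes were not tested.

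Leaving out 1 mouse gave 3 to 18 higher and 23 to 130 lower genes in the main effect, 0 to 7 and 0 to 17 without PLX3397, 0 to 2 and 8 to 49 with PLX3397, 20 to 56 and 63 to 188 in both strata, and 0 to 1 for the interaction. The uncalled differences in mitochondrial ribosomal RNA and hemoglobin reached 42.3 and 8.17 TPM, above 0, in this way. The highest lower counts came without vehicle mouse J17B, except the 49, which came without PLX3397 mouse J01. Of the 33 lower and 6 higher genes, 23 and 2 (Igfbp4 and Igfbp6) were called whichever mouse was left out. Bst1, Cd24a, Cd38, Cd53, Csf2rb, Ctss, Hpse, Nnat, Spp1 and Zbtb20 among the lower genes, and Col6a1, Etv5, Gm5741 and Mical2 among the higher, lost the call at least once. No paired analysis was possible because mice with and without Anakinra share no more than 1 animal number.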

Other observations

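Genes of the oligodendrocyte lineage had small lower values with Anakinra. Of 14 mature oligodendrocyte genes, 7 were lower and 0 higher at an unadjusted p below 0.05 (6.06% of all genes were lower by that criterion), with medians of -0.08 without PLX3397 and -0.10 with it, and of 12 progenitor genes 6 were lower and 0 higher, with medians of -0.17 and -0.09. Limma called 0 of either list.

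Some secreted injury-response genes, chosen after their values were seen, had an unadjusted p below 0.05 in both strata without being called. Slpi, a leukocyte protease inhibitor, was at -0.91 ± 0.22 (adjusted p = 0.0968). Complement C3 was at -0.52 ± 0.13 (adjusted p = 0.121), Serpina3n at -0.32 ± 0.09 (adjusted p = 0.156) and the chitinase-like Chil1 at -0.43 ± 0.10 (adjusted p = 0.114). Without vehicle mice J17B and J20B all 4 were called, with an adjusted p of 0.0478 for Slpi, 0.0473 for C3, 0.0329 for Serpina3n and 0.0251 for Chil1 in limma. Their PLX3397 main effects were -0.27 for Slpi, -0.45 for C3 and -0.17 for Serpina3n, and that of Chil1 was near 0. The pericyte marker Rgs5, also chosen after its values were seen, was at -0.19 ± 0.04 (adjusted p = 0.0958). It differed from its list, where 10 of 13 pericyte and smooth muscle genes were higher and 3 lower, with a median of 0.08. Mmp12, macrophage elastase, likewise picked afterwards, was higher with Anakinra. It averaged 3.95 and 8.46 TPM without PLX3397 and 4.05 and 5.15 TPM with it (0.59 ± 0.13, adjusted p = 0.0644).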
